A study of Saccharomyces cerevisiae with 18 samples.

Results

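The ethanol response of the budding yeast mutant SM1 was measured as 3 cultures of SM1 grown with 6.5% v/v ethanol against 3 cultures of SM1 grown without it, 1 array each, which are 6 of the 18 two-colour arrays of the study. The other groups, of 3 cultures each, were the mutant CM1 with 6.5% and with 0% ethanol and the parent strain W303-1A with 6.5% and with 0% ethanol. W303-1A is a haploid laboratory strain, and SM1 and CM1 are mutants of it that the study names as ethanol tolerant. Their mutations, and whether each is a single clone, were not given in the sources used here. Each strain's cultures were inoculated from its own unstressed culture in late exponential growth, and RNA was taken from equal numbers of cells, at a time not given in the sources used here. On every array the RNA of 1 culture was hybridised against a pool of RNA from the 3 W303-1A cultures without ethanol, so each value is a ratio to that pool. Values are read as log2 ratios, a base the deposited table does not state, and a response is the log2 difference between the mean of the ethanol cultures and the mean of the cultures without ethanol, ± its standard error in the limma fit (n = 3 arrays in each group). All 5650 genes with a named probe entered the comparison.

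Ethanol loosens membranes, unfolds proteins and slows growth of yeast. The known answers of the cell are induction of heat shock proteins by Hsf1, of general stress genes by Msn2 and Msn4, of antioxidant and cell wall genes, changes in sterol and phospholipid synthesis, and, in many strains, a fall of transcripts for ribosome production. Because the pool is unstressed W303-1A, a value above 0 stands for more transcript than in the unstressed parent, as far as the likely direction and the unstated centring of the deposited ratios allow, and within a trend along the genome described further on.

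With ethanol 231 genes passed an adjusted p of 0.05 in SM1 (limma, Benjamini-Hochberg over all genes), which is 4.09% of those tested. Of these 160 were higher (2.83%) and 71 were lower (1.26%). At least 2-fold rises were 138 of the 160, and 32 of them were at least 4-fold, against 58 and 5 of the falls. For 153 of the rises and 63 of the falls the 3 ethanol arrays lay wholly apart from the 3 arrays without ethanol; over all genes, passed or not, 13.2% lay wholly above and 10.4% wholly below. At an unadjusted p of 0.05, 1011 genes differed. The count was 124 without replicate 1, 113 without replicate 2 and 119 without replicate 3 of the cultures without ethanol, of which 119, 111 and 118 were among the 231. Just inside the threshold, where MRPL33 lost its call with the replicate number as a block (adjusted p = 0.0608), stood ATR1 (0.94 ± 0.25), MRPL33 (0.79 ± 0.21) and RIM4 (-0.82 ± 0.22), and just outside it PDR16 (0.93 ± 0.25), HMRA2 (0.71 ± 0.19) and GPX1 (1.18 ± 0.32). The cultures are bulk samples, so fewer cells with a transcript and less of it per cell cannot be told apart.

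Some of these genes changed side of the pool level between the groups. The counts below use the signs of the ratios, not a test against the parent, and were not made over all genes. The W303-1A arrays without ethanol themselves had SDs of 0.506 to 0.839 over probes. Tested directly, SM1 without ethanol differed from W303-1A without ethanol at 98 of 5650 genes. Of the 160 that rose, 59 were below the pool in all 3 cultures without ethanol and above it in all 3 with ethanol, and 143 were above the pool in all ethanol cultures. Only 4 of the 160 stayed below the pool in all 6 arrays. Among the 71 that fell, 28 stood above the pool without ethanol and below it with ethanol in every array, and 12 were below it in all 6. With a smooth trend along the probe number removed from every array, the counts for the same genes were 77, 141 and 4 of the 160, and 31 and 7 of the 71.

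Some arrays of SM1 stood apart. On replicate 1 with ethanol, the dye-swapped array, 532 of 6368 probes (8.35%) lay within 0.001 of 0, and on replicate 2 with ethanol 177 did (2.78%), 167 of them at exactly 0; on replicate 1 of W303-1A without ethanol 86 did, and on each of the other 15 arrays 5 to 16. How these values arose is not stated. With all of them treated as missing, an alternative chosen after seeing the data, 259 genes passed, 230 of them among the 231. Replicate 1 with ethanol also held the most extreme values, with an SD of 0.991 over probes against 0.829 on both other ethanol arrays. Over all 5650 genes the turned swapped arrays were little like the normal arrays of their own groups. With ethanol, replicate 1 correlated with replicates 2 and 3 at 0.168 and 0.122, and those 2 with each other at 0.651. Without ethanol, replicate 1 correlated with replicates 2 and 3 at 0.088 and -0.057, and those 2 with each other at 0.786. With replicate 1 of the ethanol cultures left out, 209 genes passed, of which 154 were among the 231. Deposited values changed sign on the swapped array for the large rises, for example -6.32 for HSP12 against 5.16 and 4.69 on the normal arrays, and swapped arrays were turned accordingly; sample over pool is the likely direction, not a stated one. Copies of nearly the same sequence cross-hybridise, so single values in the TDH, ENO, HXT, CUP1, CWP, ribosomal protein and histone families are uncertain as to the copy.

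Heat shock proteins rose in part. The membrane-associated small heat shock gene HSP12 stood at 6.32, 5.16 and 4.69 in the ethanol cultures and at 0.28, 0.33 and 0.56 in those without, a response of 5.0 ± 0.54 (adjusted p = 6.93e-05). All 3 ethanol arrays were far above all 3 others. HSP26, the small heat shock chaperone, read 2.77, 2.43 and 2.62 with ethanol and -0.34, -0.25 and -0.19 without (2.86 ± 0.46, adjusted p = 0.00209). HSP31, a methylglyoxal-detoxifying chaperone, lay on opposite sides of the pool in the 2 groups, at 1.47, 1.30 and 1.33 with ethanol and -1.27, -1.66 and -1.98 without (3.01 ± 0.23, adjusted p = 3.54e-06). These were the 3 of 7 small heat shock and disaggregase genes that passed, and 0 fell; the list had a median of 0.78, against 0.0002 over all genes. HSP42 (0.27 ± 0.36) and the disaggregase HSP104 (-0.14 ± 0.29, adjusted p = 0.862) did not pass. HSP104 was lower on the swapped ethanol array (-0.21) than on the other 2 (0.46 and 0.42), and without that array its difference was 0.04.

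Among 10 genes of Hsp90 and its co-chaperones 3 rose and 0 fell, with a median of 0.41. They were the cyclophilin CPR6 (1.63 ± 0.24, adjusted p = 0.00125), HCH1 (1.38 ± 0.24, adjusted p = 0.00373) and the ATPase activator AHA1 (1.13 ± 0.23, adjusted p = 0.0101). CPR6 read 1.04, 1.53 and 1.58 with ethanol and -0.41, -0.37 and 0.05 without. The chaperones themselves, HSP82 (0.68 ± 0.28) and HSC82 (0.22 ± 0.25), did not pass. None of 15 cytosolic Hsp70 and J-protein genes passed by limma. Of these, 6 did at an unadjusted p of 0.05, against 1011 of all 5650 genes. The list median was 0.33 and SSA1 stood at 0.35 ± 0.34. Of 9 mitochondrial chaperones 2 rose, the chaperonin HSP10 (1.60 ± 0.22, adjusted p = 0.000652) and the disaggregase HSP78 (1.19 ± 0.28, adjusted p = 0.0229). Without either replicate 1 or 2 of the 0% cultures AHA1 lost its call, at an adjusted p up to 0.0524, and HSP78 kept it only without replicate 1 of the ethanol cultures (0.0868 at most).

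Folding in the endoplasmic reticulum moved as well, with 4 of 18 genes higher, 0 lower and a median of 0.61. ERO1, the thiol oxidase that drives disulfide formation there, read 1.79, 2.20 and 1.97 with ethanol and -0.65, -0.30 and -0.31 without (2.41 ± 0.24, adjusted p = 3.61e-05). KAR2, the Hsp70 of that compartment, read 1.02, 1.30 and 1.41 with ethanol and -0.28, -0.65 and -0.81 without (1.82 ± 0.31, adjusted p = 0.00317). Both genes lay below the pool in every culture without ethanol and above it in every culture with ethanol. The exchange factor of Kar2, SIL1, rose by 0.88 ± 0.19 and the prolyl isomerase FPR2 by 0.78 ± 0.19. PDI1 (0.53 ± 0.28) and HAC1 (-0.53 ± 0.38) did not pass. ERO1 and KAR2 kept their calls whichever SM1 array was left out, whereas SIL1 lost its call without 3 of the 6 and FPR2 without 5 (adjusted p up to 0.0704 and 0.13).

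**Figure D1:**
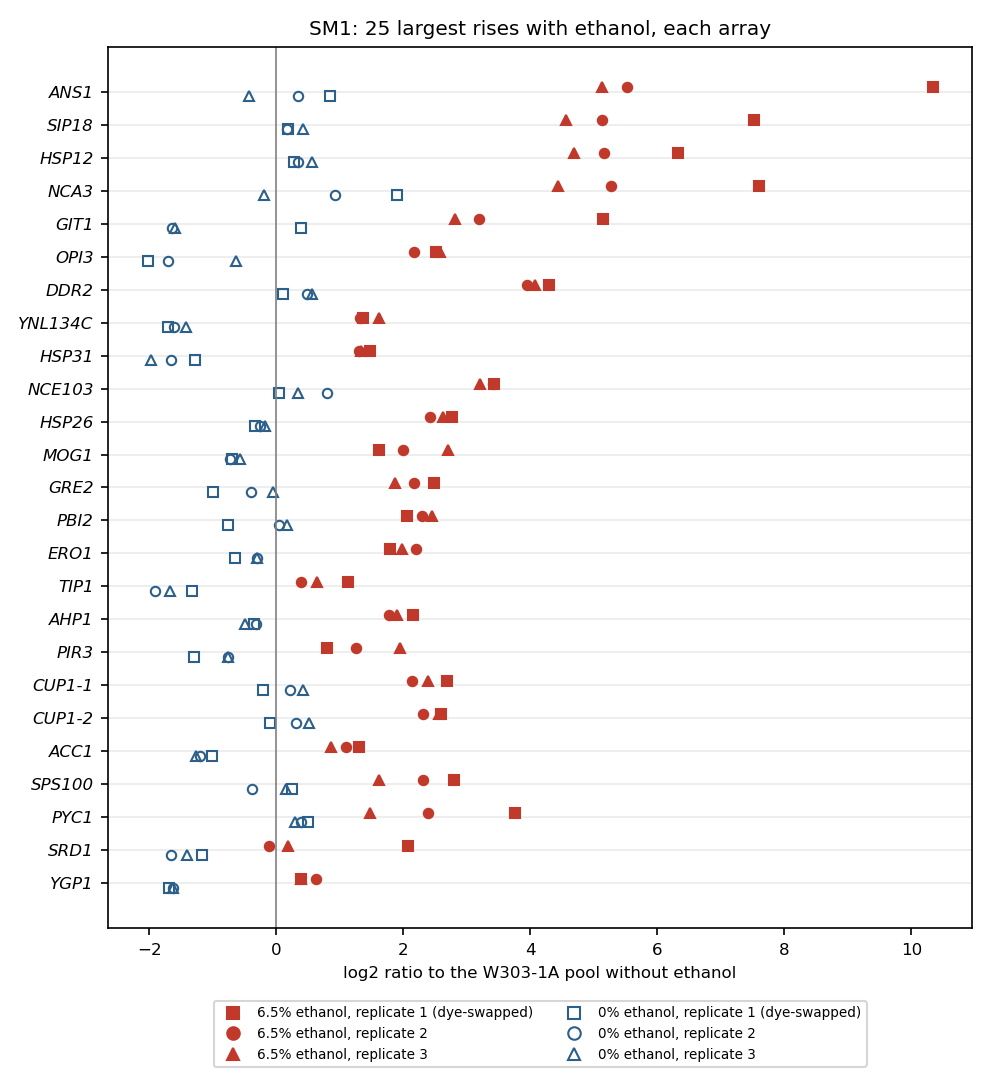
The 25 largest rises of SM1 with ethanol, 1 row per gene, as log2 ratio to the unstressed W303-1A pool. Filled red marks are the 3 cultures with 6.5% ethanol and open blue marks the 3 without; squares are the dye-swapped arrays. ANS1 reached 10.34 on the swapped array against 5.52 and 5.13 on the normal ones, and OPI3, YNL134C, HSP31 and TIP1 crossed the pool level between the groups.

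General stress genes of Msn2 and Msn4 were the list with the most rises by count, though not by share of the list. Of 39 genes 12 rose and 0 fell, with a median of 0.70. Over all genes 2.83% rose and 1.26% fell. The shorter glycolysis list had 8 of 17 genes higher and a median of 0.89. SIP18, a phospholipid-binding hydrophilin, read 7.52, 5.13 and 4.57 with ethanol and 0.18, 0.17 and 0.42 without (5.48 ± 0.52, adjusted p = 2.61e-05). Its paralog GRE1 rose too, at 2.30, 2.12 and 2.14 with ethanol and 0.21, 0.67 and 0.51 without (1.73 ± 0.33, adjusted p = 0.00615). DDR2, induced by many stresses, was among the tightest, with 4.29, 3.95 and 4.08 against 0.10, 0.49 and 0.56 (3.72 ± 0.23, adjusted p = 3.47e-07). GRE2, a reductase of methylglyoxal, rose by 2.66 ± 0.45, the aldose reductase GRE3 by 1.82 ± 0.24, DDR48 by 1.68 ± 0.30, HOR7 by 1.33 ± 0.23 and MOH1 by 1.28 ± 0.30. The cytosolic catalase CTT1 read 1.06, 1.04 and 1.06 with ethanol and -0.68, -0.81 and -0.55 without (1.73 ± 0.39, adjusted p = 0.0204). Its arrays did not overlap, yet the call was lost without replicate 1 of the ethanol cultures or replicate 2 or 3 of the others (adjusted p up to 0.111). The standard error of each gene comes from all 18 arrays.

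Not all stress genes moved. STF2 (0.17 ± 0.19), PNC1 (-0.73 ± 0.35), RTN2 (0.83 ± 0.49) and PRX1 (0.07 ± 0.54) did not pass. None of the 21 trehalose and glycogen genes passed by limma, and their median was -0.08. At an unadjusted p of 0.05, 2 of them did, against 1011 of all 5650 genes. TPS1, the trehalose-6-phosphate synthase, read 0.53, 0.39 and 0.09 with ethanol and 0.68, 0.19 and 0.02 without (0.04 ± 0.31, adjusted p = 0.97). The groups overlapped for TPS1, and likewise TSL1 (0.01 ± 0.29) and PGM2 (-0.10 ± 0.26) gave no difference beyond their error.

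Oxidative stress defence rose at 8 of 33 genes, with 0 lower and a median of 0.46. Replicates of its list median were 0.39, 0.21 and 0.31 with ethanol and -0.35, -0.31 and -0.32 without. The thiol peroxidase AHP1 read 2.15, 1.77 and 1.90 with ethanol and -0.35, -0.31 and -0.49 without (2.33 ± 0.25, adjusted p = 6.93e-05). The peroxiredoxins TSA1 (1.56 ± 0.24) and TSA2 (1.21 ± 0.24), thioredoxin TRX2 (1.48 ± 0.25), mitochondrial superoxide dismutase SOD2 (1.42 ± 0.26), the NADPH oxidoreductase OYE2 (1.12 ± 0.23) and glutaredoxin GRX2 (1.09 ± 0.25) rose, besides CTT1. GRX2 lost its call without 4 of the 6 SM1 arrays (adjusted p up to 0.14), and OYE2 without replicate 3 of the cultures without ethanol (adjusted p = 0.0655). TRX1 (1.10 ± 0.31, adjusted p = 0.0635) and GRX1 (1.04 ± 0.28, adjusted p = 0.0513) ended just outside the threshold. Outside these lists, YNL134C, a dehydrogenase-like gene, read 1.36, 1.32 and 1.61 with ethanol and -1.71, -1.61 and -1.42 without (3.01 ± 0.23, adjusted p = 3.54e-06).

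Of a list of 30 genes of iron and copper uptake and handling 3 rose, ISU1 and the CUP1 pair, and 0 fell, with a median of 0.22. None of these 3 is an uptake gene, and the CUP1 pair may be a single signal. Over all genes 2.83% rose and 1.26% fell. The metallothionein genes CUP1-1 (2.26 ± 0.28) and CUP1-2 (2.24 ± 0.25), which bind copper and cannot be told apart by hybridisation, read 2.69, 2.14 and 2.38 with ethanol and -0.22, 0.22 and 0.41 without at the CUP1-1 probe. ISU1, the mitochondrial scaffold on which iron-sulfur clusters are built, read 1.17, 1.49 and 1.33 with ethanol and -1.02, -0.60 and -0.59 without (2.07 ± 0.27, adjusted p = 0.000436). Its paralog ISU2 read 0.88, 1.29 and 1.60 with ethanol and -0.90, -0.76 and -0.52 without (1.99 ± 0.22, adjusted p = 9.54e-05). Both scaffold genes lay above the pool in every ethanol culture and below it in every other. The copper chaperones ATX1 (1.73 ± 0.28) and COX17 (1.65 ± 0.29) and the cytosolic cluster-assembly factor DRE2 (0.90 ± 0.23) rose as well; these 3 were named after their values were seen. The multicopper oxidase FET3 (-0.85 ± 0.52, adjusted p = 0.432) and the copper transporter CTR1 (0.64 ± 0.26, adjusted p = 0.19) did not pass, and both stayed below the pool in all 6 cultures.

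Many glycolytic genes rose towards the level of the unstressed parent. Of 17 genes 8 rose and 1, the hexokinase gene HXK2, fell, with a median of 0.89. The list median was 0.04, 0.23 and 0.34 in the ethanol cultures and -0.95, -0.98 and -0.84 in those without, so SM1 lay under the pool at rest and near it with ethanol. The phosphoglycerate mutase GPM1 read 0.92, 0.68 and 0.66 with ethanol and -1.02, -1.15 and -0.76 without (1.73 ± 0.27, adjusted p = 0.0016). PGK1, the phosphoglycerate kinase, read 0.45, 0.45 and 0.60 against -1.06, -1.20 and -0.98 (1.58 ± 0.25, adjusted p = 0.00208). The glyceraldehyde-3-phosphate dehydrogenases TDH1 (1.76 ± 0.27), TDH2 (1.31 ± 0.19) and TDH3 (1.71 ± 0.27), the enolases ENO1 (1.52 ± 0.27) and ENO2 (1.47 ± 0.27) and the aldolase FBA1 (1.34 ± 0.25) passed too. TDH3 reached -0.48, -0.26 and 0.01 with ethanol, against -2.14, -1.77 and -1.97 without, and TDH1 was above the pool in all 6 arrays.

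The hexokinase gene HXK2 fell while 8 other genes of its list rose. HXK2, the main hexokinase of growth on glucose, read -1.61, -1.58 and -1.18 with ethanol and 0.27, 0.20 and 0.32 without (-1.72 ± 0.28, adjusted p = 0.00225). HXK1 (-0.53 ± 0.34) and the glucokinase GLK1 (adjusted p = 0.997) did not pass. The low-affinity glucose transporters HXT1 (-1.29 ± 0.33, adjusted p = 0.0356) and HXT3 (-1.43 ± 0.31, adjusted p = 0.0156) were the 2 of 22 hexose transporter and sensor genes that passed, both lower. MIG2, a repressor induced by glucose, read -0.06, -2.13 and -1.62 with ethanol and 0.62, 1.10 and 0.49 without (-2.01 ± 0.50, adjusted p = 0.0327). YKR075C, of unknown function, stood high in SM1 at rest, with 0.57, 1.28 and 0.56 with ethanol and 2.28, 2.47 and 2.51 without (-1.61 ± 0.38, adjusted p = 0.0254). HXK2 kept its call whichever SM1 array was left out. HXT1 lost its call without 4 of the 6 arrays and HXT3 without 5 (adjusted p up to 0.182 and 0.081). Without replicate 1 of the ethanol cultures 0 of the 22 genes were called, and the list median was 0.23 in place of -0.18. Likewise 0 were called without each in turn of the 3 arrays of cultures without ethanol. MIG2 lost its call without 5 of the 6 arrays and YKR075C without 4 (adjusted p up to 0.169 and 0.138).

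Other steps of carbon metabolism moved in small numbers. PDC1, the main pyruvate decarboxylase, fell (-1.07 ± 0.27, adjusted p = 0.034), while the mitochondrial aldehyde dehydrogenases ALD4 (1.21 ± 0.28) and ALD5 (1.09 ± 0.25) rose, out of 18 genes of ethanol and acetaldehyde metabolism. ADH1 (0.60 ± 0.32, adjusted p = 0.356) and ADH2 (0.29 ± 0.32, adjusted p = 0.707) did not pass. GPD1, the first enzyme of glycerol synthesis, fell (-1.01 ± 0.25, adjusted p = 0.0345), reading -0.70, -1.05 and -1.04 with ethanol and 0.30, -0.08 and 0.02 without. In the pentose phosphate pathway GND1 (-1.32 ± 0.31) and RPE1 (-1.42 ± 0.30) fell and 0 of 11 genes rose. Pyruvate carboxylase PYC1 rose by 2.14 ± 0.51 (adjusted p = 0.0259), but unevenly, with 3.75, 2.38 and 1.48 in the ethanol cultures against 0.49, 0.39 and 0.29 in those without. The isocitrate dehydrogenase subunit IDH2 (1.27 ± 0.21) was the only other gene to pass of 27 of the TCA and glyoxylate cycles and gluconeogenesis. Of these called genes IDH2 alone kept its call whichever SM1 array was left out; GPD1 lost it without each of the 6 (adjusted p up to 0.146).

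Phospholipid genes included 2 of the largest rises. GIT1, the permease for glycerophosphoinositol, read 5.15, 3.19 and 2.81 with ethanol and 0.39, -1.65 and -1.59 without (4.67 ± 0.48, adjusted p = 4.76e-05). OPI3, the methyltransferase that completes phosphatidylcholine, read 2.51, 2.17 and 2.58 with ethanol and -2.03, -1.72 and -0.63 without (3.88 ± 0.39, adjusted p = 3.61e-05). The groups lay wholly apart for both. CHO2, which carries out the first of these methylations, rose by 1.07 ± 0.25 (adjusted p = 0.0225), and it lost this call without 5 of the 6 arrays (adjusted p up to 0.0988). They were the 3 of 26 inositol and phospholipid genes that passed, and the list median was 0.17. INO1, of inositol synthesis, did not pass (-0.33 ± 0.48). In fatty acid synthesis ACC1, acetyl-CoA carboxylase, rose alone of 15 genes, at 1.30, 1.09 and 0.85 with ethanol and -1.01, -1.20 and -1.27 without (2.24 ± 0.20, adjusted p = 1.19e-05). OLE1, the fatty acid desaturase, stayed low on all arrays, with -3.11, -2.47 and -2.29 with ethanol and -3.02, -2.48 and -2.62 without (0.09 ± 0.48, adjusted p = 0.953).

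Sterol synthesis moved down at 5 of 27 genes, with 0 higher and a median of -0.33. HMG1, a reductase at the committed step of the pathway, read -2.11, -2.09 and -1.24 with ethanol and 0.03, 0 and 0.39 without (-1.95 ± 0.31, adjusted p = 0.00195). ERG2 (-1.28 ± 0.28), ERG6 (-1.16 ± 0.29), ERG28 (-1.09 ± 0.23) and ERG11 (-0.97 ± 0.25), all of the later steps, fell too. HMG1 kept its call whichever SM1 array was left out. ERG6 and ERG11 lost theirs without each one (adjusted p up to 0.193 and 0.144), and without replicate 1 of the ethanol cultures 2 of the 27 genes were called. In the sphingolipid list the ceramidase gene YPC1 fell (-1.02 ± 0.24, adjusted p = 0.0244), alone of 19. Single arrays left out ended the call of ERG2 and YPC1 in 5 of 6 cases (adjusted p up to 0.0827 and 0.0932) and that of ERG28 in 3 (up to 0.0715).

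**Figure D2:**
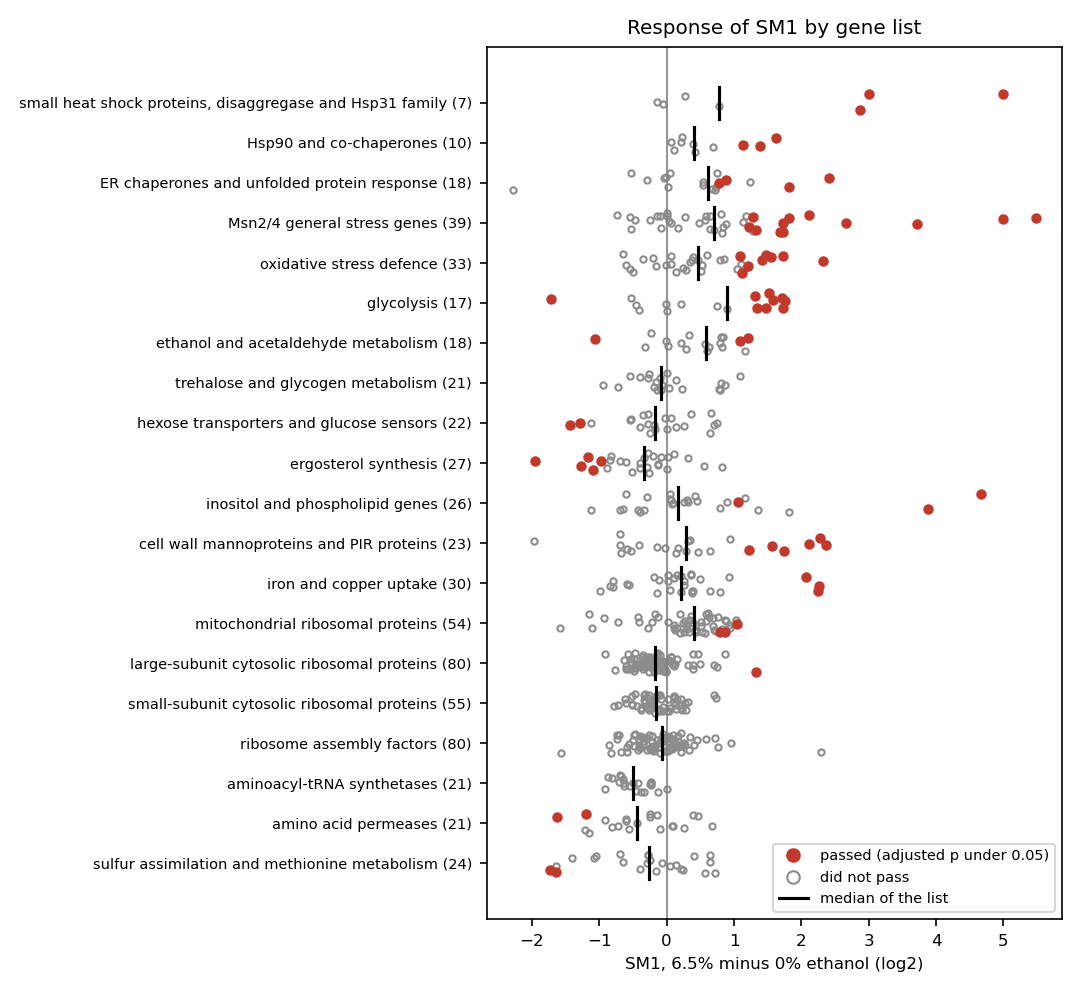
Response of SM1 (6.5% minus 0% ethanol, log2) for the members of 20 gene lists, with the number of genes measured in brackets. Each circle is a gene, filled where it passed an adjusted p of 0.05, and the black bar is the median of the list. The bars of glycolysis (0.89) and general stress genes (0.70) lie to the right of 0, those of the ribosomal lists close to it.

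At the cell surface, 6 of 23 cell wall mannoprotein genes rose and 0 fell, with a median of 0.28. TIP1 read 1.13, 0.39 and 0.64 with ethanol and -1.33, -1.91 and -1.67 without (2.36 ± 0.27, adjusted p = 9.97e-05). PIR3, a wall protein linked to glucan, read 0.80, 1.25 and 1.95 against -1.30, -0.77 and -0.77 (2.28 ± 0.26, adjusted p = 9.54e-05). YGP1, a secreted glycoprotein of stress and starvation, read 0.38, 0.62 and 0.39 with ethanol and -1.69, -1.63 and -1.63 without (2.11 ± 0.22, adjusted p = 4.76e-05). The groups did not overlap for any of these 3, and PIR3 was the least even, with 1.95 on replicate 3 with ethanol against 0.80 on the swapped array. CWP2 stood at 1.85, 1.82 and 1.86 with ethanol and at 0.19, 0.08 and 0.03 without (1.74 ± 0.21, adjusted p = 0.000195), and CWP1 (1.57 ± 0.25) and SPI1 (1.23 ± 0.22) rose too. All 6 kept their calls whichever SM1 array was left out. UTR2, which crosslinks chitin to glucan, fell, with -2.22, -2.45 and -1.94 with ethanol and -0.41, -0.26 and -0.39 without (-1.85 ± 0.36, adjusted p = 0.00738), alone of 18 wall enzyme genes.

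The largest rise of all was that of ANS1, the gene of a putative GPI-anchored protein, at 10.34, 5.52 and 5.13 with ethanol and 0.84, 0.34 and -0.43 without (6.75 ± 0.77, adjusted p = 9.97e-05). NCA3, of the SUN family of wall-associated proteins, read 7.60, 5.27 and 4.44 with ethanol and 1.90, 0.92 and -0.19 without (4.89 ± 0.79, adjusted p = 0.00217), and no other of the 4 SUN genes passed. For both genes the swapped ethanol array read highest; with it left out the ANS1 response was 5.29 and still passed. NCE103, the carbonic anhydrase, rose evenly, with 3.43, 3.41 and 3.20 against 0.04, 0.79 and 0.34 (2.96 ± 0.33, adjusted p = 9.54e-05). Of 13 ion pump genes 12 were below 0, against 2824 of all 5650 genes, and the list median was -0.60. PMC1, the vacuolar calcium pump, was the member that passed, at -0.61, -0.83 and -0.76 with ethanol and 0.92, 0.85 and 0.69 without (-1.56 ± 0.32, adjusted p = 0.0101), a call lost without replicate 2 or 3 of the cultures without ethanol (adjusted p up to 0.0608). The plasma membrane proton pump PMA1 (-0.68 ± 0.46, adjusted p = 0.484) and the sodium pump ENA1 (-1.63 ± 0.48, adjusted p = 0.0724) did not pass.

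Amino acid genes moved in both directions. Of 61 synthesis genes 5 rose and 1 fell, with a median of 0.09. ARG4, argininosuccinate lyase, read -0.33, -0.13 and -0.31 with ethanol and -1.96, -2.14 and -2.10 without (1.81 ± 0.22, adjusted p = 0.000146), and so rose while staying under the pool. CPA1, of carbamoyl phosphate synthesis, rose by 2.06 ± 0.43, ARG1 by 1.47 ± 0.35, LEU4 by 1.24 ± 0.25 and LYS9 by 1.15 ± 0.30. HOM6, homoserine dehydrogenase, fell to -2.04, -2.09 and -1.95 with ethanol, against -0.76, -0.62 and -0.58 without (-1.38 ± 0.29, adjusted p = 0.0117). ARG4 and LEU4 kept their calls whichever SM1 array was left out, and LYS9 lost its call without each of the 6 (adjusted p up to 0.16) and with the replicate number as a block (adjusted p = 0.0542). ARO10, a decarboxylase of aromatic amino acid breakdown, fell (-1.73 ± 0.34, adjusted p = 0.00887). The calls of ARG1, CPA1 and HOM6 ended without 4, 3 and 2 of the 6 arrays (adjusted p up to 0.131, 0.0717 and 0.0743), and that of ARO10 without replicate 3 of the cultures without ethanol (adjusted p = 0.0564).

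Few permease and sulfur assimilation genes passed, and those that did were lower. The methionine permease MUP1 read -2.66, -2.45 and -2.20 with ethanol and -0.89, -0.79 and -0.75 without (-1.63 ± 0.31, adjusted p = 0.00615), and it kept its call whichever SM1 array was left out. The glutamine permease GNP1 fell too (-1.20 ± 0.28), and 0 of 21 permeases rose. Over all genes 2.83% rose and 1.26% fell, so 0 rises in a list of this size gives no direction. The sulfite reductase subunit MET10 (-1.74 ± 0.41) and adenylylsulfate kinase MET14 (-1.65 ± 0.34) were the 2 of 24 sulfur genes that fell. MET10 ranged from -0.89 on the swapped ethanol array to -2.36 on replicate 3, and MET14 stood at -2.68 on the swapped array against -1.16 and -1.11. Both calls were lost without some arrays, MET10 without 4 (adjusted p up to 0.148) and MET14 without 2 (up to 0.0559). Without either replicate 1 or replicate 3 of the cultures without ethanol, 0 of the 24 sulfur genes were called. Among vitamin genes the thiamine permease THI7 (1.41 ± 0.31) and THI12 (1.53 ± 0.38) rose; THI12 read 0.00 on the swapped ethanol array, and 1.83 and 1.07 on the others. GNP1, THI7 and THI12 each lost their calls without 5 of the 6 arrays (adjusted p up to 0.106, 0.0769 and 0.138).

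Few transcripts for making proteins passed. Of 80 large-subunit ribosomal protein genes 1 rose, RPL9B, with 0.25, 0.46 and 0.35 with ethanol and -1.06, -1.06 and -0.81 without (1.33 ± 0.18, adjusted p = 0.000604), and 0 fell. None of 55 small-subunit genes or of 80 ribosome assembly genes passed by limma. At an unadjusted p of 0.05, 8 and 6 did, against 1011 of all 5650 genes. The medians were -0.18, -0.16 and -0.08, and 61 of the 80 large-subunit genes were below 0, against 2824 of all 5650 genes. None of 21 aminoacyl-tRNA synthetases passed by limma, with 8 at an unadjusted p of 0.05. Of these 21 genes 20 were below 0 and 13 lay wholly lower with ethanol, as 10.4% of all genes did; the list median was -0.50. With array weights 8 of 80 large-subunit genes, 5 of 55 small-subunit genes and 7 of 21 synthetases were lower, and 1, 1 and 0 were higher. That setting called 799 of all 5650 genes, higher and lower together, so this total is not a share of lower genes alone. HYP2, the translation factor eIF5A, fell (-0.78 ± 0.21, adjusted p = 0.0473), a call lost whichever SM1 array was left out (adjusted p up to 0.174) and with the replicate number as a block (adjusted p = 0.0625). Of 54 mitochondrial ribosomal protein genes 3 rose and 0 fell, with a median of 0.40 and 43 of the 54 above 0; MRPL31 (1.04 ± 0.22) had the largest value of those called. None of the 54 was higher by limma without replicate 3 of the ethanol cultures, without each in turn of the 3 arrays of cultures without ethanol, or on the normal-orientation arrays alone, where 1 was lower. In the respiratory chain COX7 (1.06 ± 0.24), COX12 (0.98 ± 0.21) and ATP18 (1.18 ± 0.24) rose and the external NADH dehydrogenase NDE1 fell (-1.12 ± 0.25), of 37 genes. MRPL31 and NDE1 lost their calls without 5 of the 6 arrays (adjusted p up to 0.0778 and 0.123), COX7 without 4 (up to 0.11), ATP18 without 3 (up to 0.0654) and COX12 without 2 (up to 0.0706).

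RAP1, HMO1 and STE2 were among the largest falls. RAP1, which binds ribosomal protein promoters and telomeres, read -2.28, -0.92 and -0.46 with ethanol and -0.05, 0.70 and 1.13 without (-1.82 ± 0.37, adjusted p = 0.00992). HMO1, an HMG-box protein of the same promoters and of ribosomal DNA, was tighter, with -0.78, -0.80 and -0.72 against 1.22, 0.87 and 0.49 (-1.63 ± 0.27, adjusted p = 0.00274). HMO1 kept its call whichever SM1 array was left out, and RAP1 lost its call without replicate 3 of the cultures without ethanol (adjusted p = 0.0655). STE2, the receptor of α-factor on a cells, read -3.18, -3.80 and -2.79 with ethanol and -1.09, -1.30 and -1.08 without (-2.10 ± 0.35, adjusted p = 0.00274). It was the 1 of 7 a-cell genes that passed; BAR1 (-0.43 ± 0.48) and MFA2 (0.15 ± 0.19) were below the pool in all 6 arrays. The G1 cyclin CLN2 rose, with 1.03, 1.48 and 2.37 with ethanol and -0.25, -0.32 and 0.04 without (1.80 ± 0.31, adjusted p = 0.00317), as did the Pho85 cyclin PCL1 (1.23 ± 0.30, adjusted p = 0.0327), whose call ended without 4 of the 6 arrays (adjusted p up to 0.184). None of 10 histone, 34 replication or 34 proteasome genes passed by limma, with medians of -0.08, 0.07 and 0.09. At an unadjusted p of 0.05 there were 0, 7 and 5, against 1011 of all 5650 genes.

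**Figure D3:**
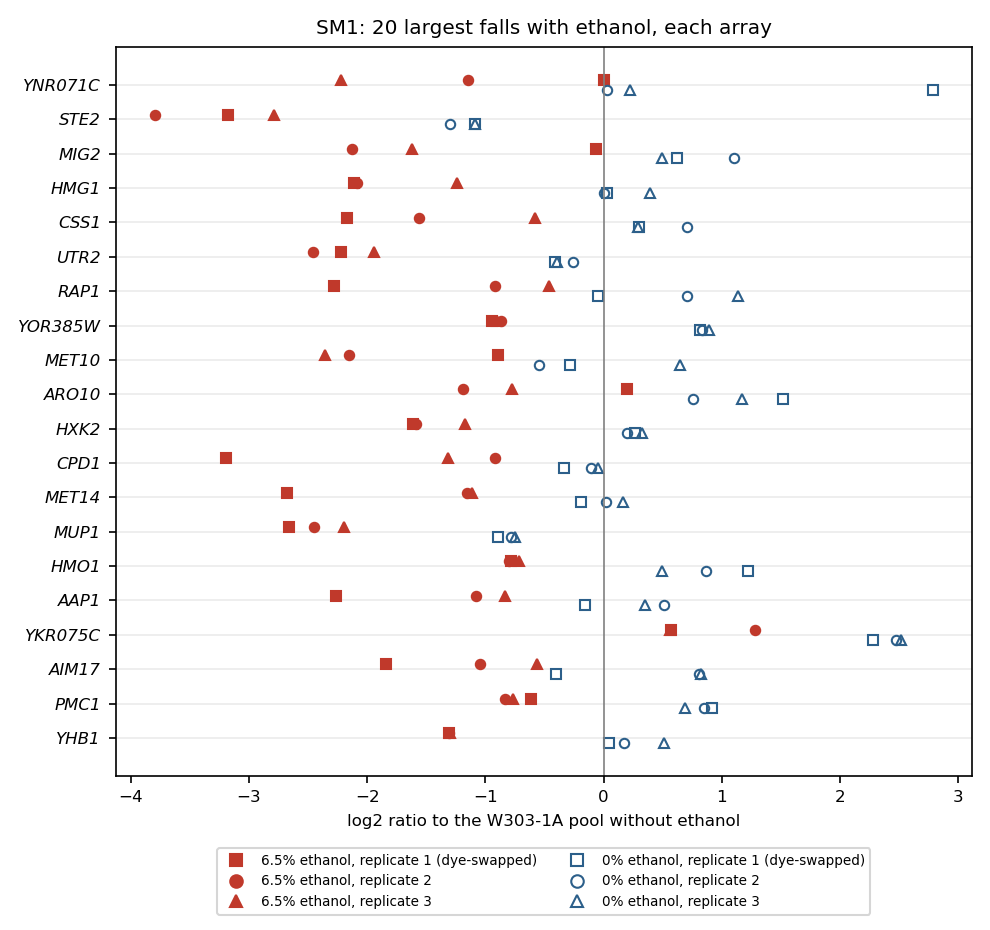
The 20 largest falls of SM1 with ethanol among genes that passed and whose groups did not overlap, 1 row per gene, as log2 ratio to the unstressed W303-1A pool. Filled red marks are the 3 cultures with 6.5% ethanol, open blue marks the 3 without, and squares the dye-swapped arrays. STE2 lies lowest, at -2.79 to -3.80 with ethanol, and YKR075C stays above the pool in all 6 arrays.

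Several falls rest on uneven arrays. YNR071C, an epimerase-like gene, had the largest fall among called genes without overlap (-2.14 ± 0.53, adjusted p = 0.0327), yet read 0.00 on the swapped ethanol array, -1.15 and -2.22 on the others, and 2.79, 0.03 and 0.23 without ethanol; the call was lost without each of the 6 arrays (adjusted p up to 0.184). GIS4 (-2.66 ± 0.64) and MAY24 (-2.42 ± 0.45) had larger falls but overlapping groups, and were named after their values were seen: MAY24 read -5.30, 0.20 and 0.57 with ethanol and -1.77, 2.04 and 2.45 without. CPD1, a cyclic phosphodiesterase, read -3.19 on the swapped array against -0.92 and -1.31, and lost its call without 5 of the 6 (adjusted p up to 0.175). In contrast the nitric oxide dioxygenase YHB1 read -1.31, -1.31 and -1.30 with ethanol and 0.05, 0.17 and 0.51 without (-1.55 ± 0.40, adjusted p = 0.0428), and YOR385W read -0.94, -0.87 and -0.90 against 0.81, 0.83 and 0.89 (-1.75 ± 0.41, adjusted p = 0.0254). The aminopeptidase AAP1 was uneven too, at -2.26 on the swapped ethanol array and -1.08 and -0.83 on the others, against -0.16, 0.51 and 0.35 without ethanol (-1.62 ± 0.24, adjusted p = 0.00123). AAP1, CSS1 (-1.87 ± 0.35) and AIM17 (-1.56 ± 0.29) kept their calls whichever SM1 array was left out, while YHB1 and YOR385W lost theirs without 5 of the 6 (adjusted p up to 0.184 and 0.123). YHB1 also lost its call with the replicate number as a block (adjusted p = 0.0575).

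Among the largest rises some belong to other roles. MOG1, a Ran-binding protein of nuclear import, read 1.62, 2.00 and 2.71 with ethanol and -0.70, -0.73 and -0.57 without (2.77 ± 0.35, adjusted p = 0.000263). PBI2, the inhibitor of vacuolar proteinase B, read 2.05, 2.30 and 2.44 against -0.77, 0.05 and 0.17 (2.45 ± 0.20, adjusted p = 4.34e-06). The spore wall gene SPS100 (2.24 ± 0.32) and SRD1 (2.13 ± 0.32), of ribosomal RNA processing, rose too, SRD1 with 2.07 on the swapped ethanol array and -0.11 and 0.18 on the normal ones. All 4 kept their calls whichever SM1 array was left out. URA10, an orotate phosphoribosyltransferase of pyrimidine synthesis, rose by 2.09 ± 0.37 (adjusted p = 0.00373). Of the 231 genes that passed, 99 were in the 52 lists and 132 in none.

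The response of SM1 was set against that of its parent. In W303-1A 1349 genes passed (23.9%), 578 higher (10.2%) and 771 lower (13.6%). Of the 231 genes of SM1, 120 passed in the same direction in W303-1A, which is 51.9% of the SM1 genes and 8.9% of the W303-1A genes, and 13 passed in the opposite direction. The difference between the 2 responses, tested itself, passed at 360 genes (6.37%), 257 of them higher in SM1 (4.55%) and 103 lower (1.82%). Without replicate 2 of the SM1 cultures grown without ethanol it passed at 151 genes, and without replicate 3 at 161. Among the 231 it passed at 50, with 34 higher and 16 lower in SM1. In level, SM1 differed from W303-1A at 989 genes with ethanol (17.5%), 583 higher (10.3%) and 406 lower (7.19%), and at 98 genes without ethanol (1.73%), 10 higher (0.177%) and 88 lower (1.56%). These level differences use the same arrays as the responses. The responses of the 2 strains share no arrays, but their arrays share the pool and a trend along the genome.

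Chromosome medians of the response lay between -0.17 and 0.11 on the nuclear chromosomes in SM1, and in W303-1A between 0.51 on chromosome III and -0.57 on chromosome XVI. Single arrays of SM1 carried a trend too. It ran from -0.62 and -0.76 on chromosome I to 0.48 and 0.41 on chromosome XVI on the normal ethanol arrays. On the normal arrays without ethanol it ran from -0.58 and -0.72 to 0.32 and 0.41. The swapped arrays, once turned, ran the other way, from 0.31 to -0.19 with ethanol and from 0.39 to -0.17 without. The trend thus changed sign with dye orientation, and its cause was not tested. With a smooth trend along the probe number removed from every array, 265 genes passed in SM1, 211 of them among the 231, and 257 genes passed the difference from W303-1A, 206 of them among the 360. Of 47 named genes that differed from W303-1A, 42 kept the call; HSP12, HHF2, MOG1, MRPL31 and YPC1 lost it.

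**Figure D4:**
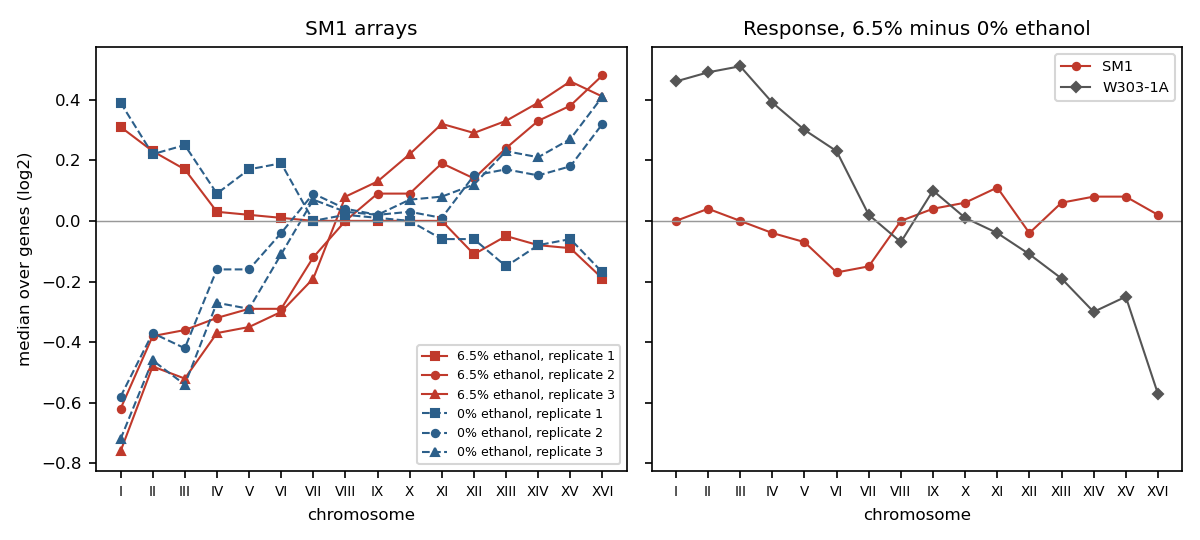
Median log2 value over the genes of each nuclear chromosome, I to XVI. Left, the 6 SM1 arrays as ratio to the pool (solid red, 6.5% ethanol; dashed blue, 0% ethanol); right, the response of SM1 (red) and of W303-1A (grey). The SM1 response stays between -0.17 and 0.11, the W303-1A response between 0.51 and -0.57.

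The largest differences from the parent lay at genes that rose in SM1 and not in W303-1A. ANS1 stood at 6.75 ± 0.77 in SM1 and 0.26 ± 0.77 in W303-1A, a difference of 6.49 ± 1.10 (adjusted p = 0.00432). NCA3 stood at 4.89 ± 0.79 in SM1 and -0.46 ± 0.79 in W303-1A (difference 5.35), and SIP18 at 5.48 ± 0.52 in SM1 and 0.97 ± 0.52 in W303-1A (difference 4.52). None of these 3 passed in W303-1A. ACC1 rose in SM1 (2.24 ± 0.20) and fell in W303-1A (-1.37 ± 0.20), a difference of 3.61 ± 0.28 (adjusted p = 9.88e-06), and CLN2 did likewise (1.80 ± 0.31 in SM1, -2.52 ± 0.31 in W303-1A; difference 4.32 ± 0.44, adjusted p = 0.000169). So did the wall genes CWP2 (1.74 ± 0.21 in SM1, -1.05 ± 0.21 in W303-1A), CWP1 and YGP1, the scaffold gene ISU2 (1.99 ± 0.22 in SM1, -0.84 ± 0.22 in W303-1A), LYS9 and PEX11. With the trend removed the falls in W303-1A did not pass for YGP1 (-0.39, adjusted p = 0.236), ISU2 (-0.48, adjusted p = 0.147) or PEX11 (-0.50, adjusted p = 0.182), and of the 13 genes called in opposite directions 6 kept both calls. The SM1 rise of PEX11 lost its call without 4 of the 6 arrays (adjusted p up to 0.124). CTT1 rose in SM1, while its W303-1A value was -0.68 ± 0.39, a difference of 2.42 ± 0.56 (adjusted p = 0.0188).

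A further set fell in the parent and did not pass in SM1. The RNA helicase DBP2 stood at -0.10 ± 0.34 in SM1 and fell in W303-1A (-4.39 ± 0.34). The exosome helicase MTR4 stood at 0.34 ± 0.21 in SM1 and fell in W303-1A (-1.80 ± 0.21). The wall protein CIS3 (0.28 in SM1, -2.47 ± 0.22 in W303-1A), the isopropylmalate isomerase LEU1 (-0.03 in SM1, -2.57 ± 0.22 in W303-1A) and ZPR1 (0.18 in SM1, -2.02 ± 0.20 in W303-1A) followed. Each of these 5 differences passed. OLE1 and FET3 also differed (3.56 ± 0.68 and 3.22 ± 0.74, adjusted p = 0.00799 and 0.0185); both were under the pool in all 3 SM1 cultures without ethanol, OLE1 at -2.48 to -3.02 and FET3 at -1.24 to -1.92. Of the 80 large-subunit ribosomal protein genes 0 fell in SM1 and 53 in W303-1A, and the difference passed at 13; of the 55 small-subunit genes it passed at 15 and of 80 assembly genes at 23, all higher in SM1. With the trend removed 51 of the large-subunit genes fell in W303-1A and 1 in SM1, and the differences passed at 14, 15 and 21 genes of the 3 lists, all higher in SM1.

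Other genes rose in the parent and less or not in SM1. CHA1, the serine and threonine deaminase, read 1.95, 1.23 and 1.51 with ethanol and 2.58, 1.81 and 0.88 without in SM1 (-0.19 ± 0.35), against a rise of 4.27 ± 0.35 in W303-1A; it was already above the pool in SM1 at rest. ARO10 fell in SM1 (-1.73 ± 0.34) and rose in W303-1A (2.09 ± 0.34), a difference of -3.83 ± 0.49 (adjusted p = 0.000542). The cytochrome c isoform CYC7 (-0.72 ± 0.29 in SM1, 2.97 ± 0.29 in W303-1A), the carnitine acetyltransferase YAT2 (-0.11 ± 0.31 in SM1, 2.72 ± 0.31 in W303-1A) and the homocitrate synthase LYS20 (-0.19 ± 0.25 in SM1, 2.13 ± 0.25 in W303-1A) differed too. HSP26 rose by 2.86 ± 0.46 in SM1 and by 5.71 ± 0.46 in W303-1A, a difference of -2.85 ± 0.65 (adjusted p = 0.0188, or 0.0452 with the trend removed). HSP12 rose by 5.0 ± 0.54 in SM1 and by 7.77 ± 0.54 in W303-1A (difference -2.77 ± 0.76, adjusted p = 0.0435), and that difference did not pass with the trend removed (adjusted p = 0.0688) or with the replicate number as a block (adjusted p = 0.0522). TDH1, HOR7 and ALD4 passed in both strains and rose less in SM1, by differences of -2.37, -2.08 and -1.99.

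**Figure D5:**
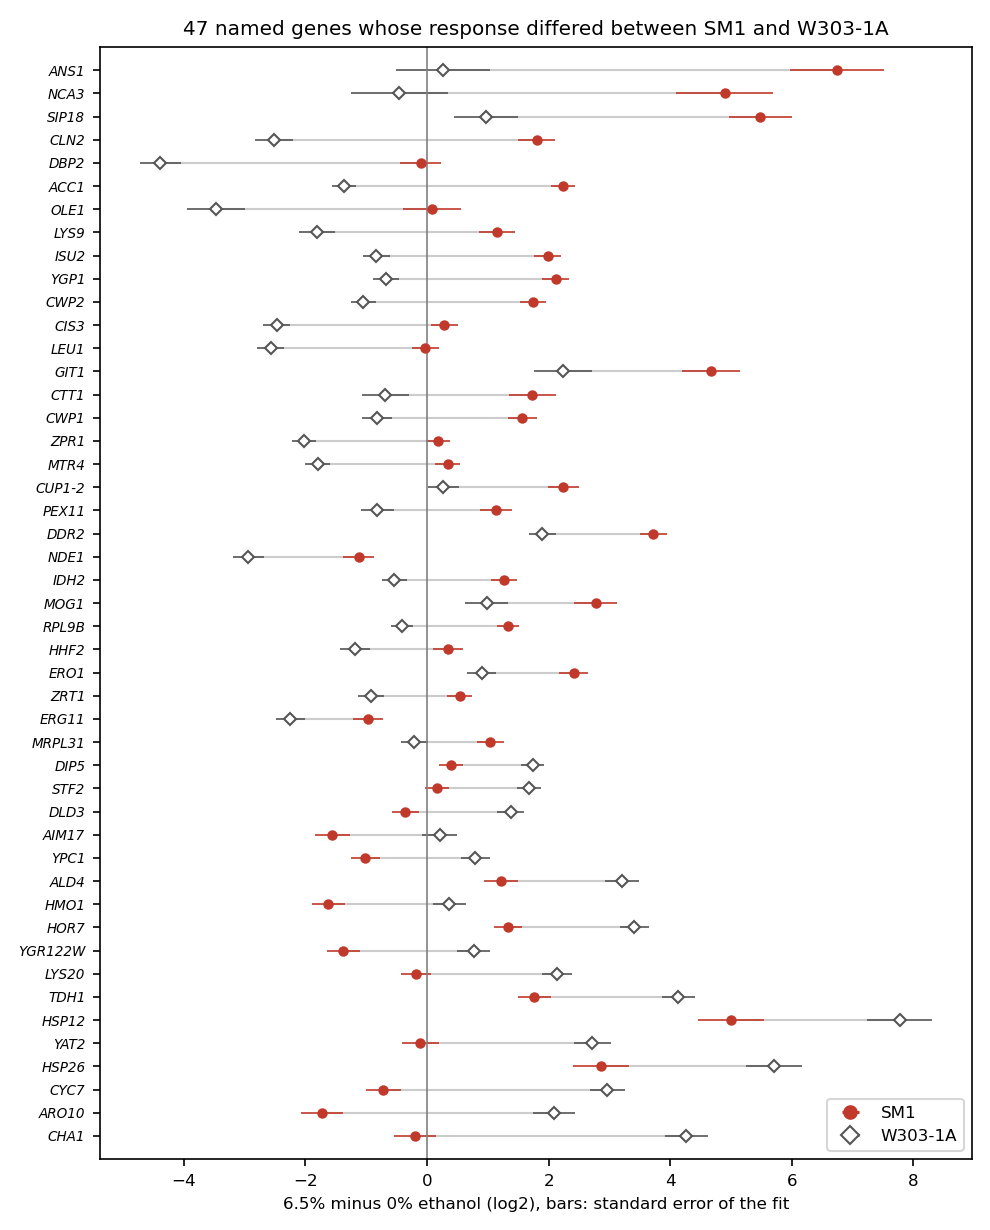
Responses (6.5% minus 0% ethanol, log2) of the 47 named genes whose response differed between SM1 and W303-1A at an adjusted p of 0.05, ordered by the difference. Red circles are SM1, open diamonds W303-1A, and bars the standard error of the fit. The top row, ANS1, differs by 6.49, and the bottom row, CHA1, by -4.46.

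Set against the second mutant, few genes passed the test of the difference. Its standard errors were larger than those of a single response, for ANS1 1.10 against 0.77. The low count therefore does not show that the 2 responses were alike. CM1 had 317 genes past the threshold (5.61%), 219 higher (3.88%) and 98 lower (1.73%). Of the SM1 genes 83 passed in the same direction in CM1, which is 35.9% of the SM1 genes and 26.2% of the CM1 genes, and 2 in the opposite direction; 58 passed in the same direction in all 3 strains. The difference between the responses of SM1 and CM1 passed at 19 genes (0.336%), 13 higher (0.23%) and 6 lower (0.106%) in SM1. SIP18 rose by 5.48 ± 0.52 in SM1, against 0.60 ± 0.52 in CM1 (difference 4.88 ± 0.74, adjusted p = 0.0153), and ANS1 by 6.75 ± 0.77, against 0.67 ± 0.77 in CM1 (difference 6.08 ± 1.10, adjusted p = 0.0229). ISU2 rose in SM1 (1.99 ± 0.22) and fell in CM1 (-0.95 ± 0.22), with the smallest adjusted p of this comparison, 0.000816. The histone genes HTB2 (-0.12 in SM1, -2.67 ± 0.29 in CM1) and HTA2 (-0.26 in SM1, -2.24 ± 0.24 in CM1) and LEU1 (-0.03 in SM1, -2.01 ± 0.22 in CM1) fell in CM1 and did not pass in SM1. YGP1 rose in both mutants and less in SM1 (difference -1.58 ± 0.31, adjusted p = 0.0418, or 0.0727 with the replicate number as a block). Leaving out replicate 1 of the SM1 cultures grown without ethanol gave 6 genes, and leaving out replicate 2 or replicate 3 of them gave 1.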

How the data were processed

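The deposited table holds 1 log ratio per probe and array for 18 two-colour arrays; per the labels, 1 of the 3 arrays of each group had its dyes swapped. The authors deposited these values as processed ratios, read here as log2; their base, centring, direction and normalization steps were not given in the sources used here, and array medians lie near 0. Of 6368 probes 5673 carried 1 gene symbol and 695 none, 23 genes with more than 1 probe were averaged, and 5650 genes were tested. Swapped arrays were turned to sample over pool. limma 3.58.1 in R 4.3.3 fitted group means and a dye term on all 18 arrays (lmFit, eBayes, 11 residual degrees of freedom), with Benjamini-Hochberg adjustment over all genes and a threshold of 0.05; the tables and figures were made in Python 3.11.15. The p-values measure the spread among separate cultures, and 3 arrays a group limit the precision. In simulated data with 200 of 5650 genes changed, the SM1 ethanol comparison recovered 27% of 2-fold and 84% of 4-fold changes, and 3.48% of its calls were false. The simulated noise was independent, with the same spread on all arrays and no dye effect or trend along the genome. The real residual SD was 0.417 to 0.534 on the SM1 ethanol arrays and 0.241 to 0.348 on those without ethanol. The simulated rates therefore cannot be taken as those of these data.

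Named genes were the 25 largest rises and 20 largest falls that passed without overlap of arrays, up to 8 called members of each list, the 10 genes with the smallest p in each direction of each difference between strains, and a panel of 14 genes; further members of the lists, mostly genes that did not pass, were named after their values were seen. Members and lists were chosen with earlier results of these data known. Deviations of same-numbered SM1 arrays from their group means correlated at 0.517, 0.273 and 0.368. The main fit did not pair arrays by number, and a replicate block was tried only as an alternative. These correlations separate replicate 1, the swapped array in both groups, from the others more than they separate 2 from 3. They cannot tell pairing from dye orientation for replicate 1. Ethanol replicate 2 with 0% replicate 3 gave 0.316 and ethanol replicate 3 with 0% replicate 2 gave 0.297, and ethanol replicate 2 did not correlate best with its own number. Alternatives changed the direction, dye term, replicate block, samples, normalization, trend, weights, moderation, probes, orientation, threshold and each SM1 array in turn; treating values within 0.001 of 0 as missing was added after seeing the data.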

Additional observations from a re-analysis of the deposited data

Results flagged for a closer look

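Of the named genes 47 responded to ethanol differently in SM1 and W303-1A, by the test of the difference itself (limma, adjusted p under 0.05). The values are the SM1 response minus the W303-1A response on the log2 scale. The response was higher in SM1 for ANS1 (6.49), NCA3 (5.35), SIP18 (4.52), CLN2 (4.32), DBP2 (4.28), ACC1 (3.61), OLE1 (3.56), LYS9 (2.95), ISU2 (2.82) and CWP2 (2.79). Smaller positive differences were found for YGP1 (2.79), CIS3 (2.76), LEU1 (2.55), GIT1 (2.43), CTT1 (2.42), CWP1 (2.39), ZPR1 (2.21), MTR4 (2.14), CUP1-2 (1.98) and PEX11 (1.95). The CUP1-1 probe, which cannot be told apart from CUP1-2 by hybridisation, gave a difference of 1.18 that did not pass (adjusted p = 0.0926). Positive differences below these were those of DDR2 (1.83), NDE1 (1.82), IDH2 (1.80), MOG1 (1.79), RPL9B (1.75), HHF2 (1.53), ERO1 (1.51), ZRT1 (1.46), ERG11 (1.28) and MRPL31 (1.25). It was lower in SM1 for CHA1 (-4.46), ARO10 (-3.83), CYC7 (-3.68), HSP26 (-2.85), YAT2 (-2.83), HSP12 (-2.77), TDH1 (-2.37), LYS20 (-2.32), YGR122W (-2.15) and HOR7 (-2.08). Smaller negative differences were those of HMO1 (-1.99), ALD4 (-1.99), YPC1 (-1.81), AIM17 (-1.77), DLD3 (-1.73), STF2 (-1.51) and DIP5 (-1.35).

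With the replicate number as a block the differences of ERG11, GIT1 and HSP12 from W303-1A no longer passed (adjusted p = 0.0515, 0.0582 and 0.0522, limma).

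Between SM1 and CM1 17 named genes differed by the same test. The SM1 response minus the CM1 response was positive for ANS1 (6.08), SIP18 (4.88), ISU2 (2.94), LEU2 (2.75), HTB2 (2.54), CLN2 (2.38), HHF2 (2.17), ALD5 (2.15), LEU1 (1.98), HTA2 (1.98) and RPL22B (1.91). It was negative for THI6 (-4.79), SHM2 (-1.86), ZRT1 (-1.64), DLD3 (-1.59), YGP1 (-1.58) and DIP5 (-1.56). With values within 0.001 of 0 treated as missing, the differences of THI6 and DLD3 from CM1 no longer passed (adjusted p = 0.0647 and 0.0506, limma), and with the replicate block those of DLD3 and YGP1 did not (0.0558 and 0.0727). THI6 read at 0 on replicate 1 of SM1 with ethanol.

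Probes without a gene symbol lay outside the comparison of genes. Of 695 such probes 21 passed in SM1 when every probe was tested singly (3.02%), 17 higher and 4 lower, against 214 probes with a symbol (3.77%).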

How the results depend on the processing

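The SM1 response counted 231 genes, its difference from W303-1A 360 and its difference from CM1 19. With swapped arrays not turned the counts were 1, 0 and 0, none shared with these genes. Without a dye term they were 112, 106 and 5, with array weights 799, 870 and 75, and at an adjusted p under 0.01 they were 105, 81 and 1. Quantile normalization gave 476 genes for the response and 220 for the difference from W303-1A. For the difference from CM1, the arrays of the strains compared alone gave 5 and the normal-orientation arrays alone 9. Leaving out 1 SM1 array gave 113 to 209 for the response, 151 to 294 for the difference from W303-1A and 1 to 21 for that from CM1. A replicate block, used where the dye term stood, gave 206, 308 and 16, so no count moved by over 1.5 times, and 10 of 187 results for named genes lost their call; the block changed no other call among them.

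Among 187 results for named genes these directions turned. With swapped arrays not turned, the SM1 response was -0.12 for ATG39, 0.26 for CPD1, -0.0795 for GRX2, 0.49 for HSP104, 0.25 for HXT1, 0.25 for INO1, 0.0117 for MET14, -0.29 for PCL1, 0.0023 for PMA1, -0.0269 for PYC1 and -0.035 for SRD1, and the SM1 minus W303-1A difference of SIP18 was -0.29. TPS1 was -0.0733 under quantile normalization. HSP104 was 0.0862 with array weights and 0.26 on normal-orientation arrays alone. Without 1 SM1 array TPS1 lay between -0.0995 and 0.18, HSP104 lay between -0.30 and 0.16, INO1 lay between -0.84 and 0.0425 and OLE1 lay between -0.0346 and 0.25. None of TPS1, HSP104, INO1 and OLE1 passed by limma in any direction in SM1. The causes were not tested. Calls of 116 named genes were followed over the 6 arrays, and 62 kept theirs whichever was left out. The unstated log base and 3 arrays a group limit these values, and 27% of 2-fold changes simulated with independent, even noise were recovered.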
